A study of Sus scrofa with 19 samples.

Results

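Messenger RNA of 54 nuclear genes of the mitochondrial respiratory chain and ATP synthase was described in adrenal glands of 19 male piglets from sows that differed in late-gestation diet and in bacterial challenge. The genes were taken by name: array features (probe sets) with 1 gene symbol in the platform annotation, the symbol beginning with NDUFA, NDUFB, NDUFC, NDUFS, NDUFV, SDHA to SDHD, UQCR, COX4 to COX8 or ATP5, with assembly factors left out and the probe set of highest mean signal kept for each symbol. This gave 54 of the 12218 symbols on the array, from 59 probe sets: 31 of complex I, 1 of complex II (SDHD), 2 of complex III (UQCR10 and UQCRB), 7 of complex IV and 13 with ATP5 symbols, called complex V here. Measured values entered the rule only through that mean, but the gene families were chosen with earlier results of these data known. Genes of these families outside the 54, such as SDHA, UQCRC1 and COX4I1, were not analysed here. All 54 genes passed the filter on low signal, and none had a group mean below it.

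Sows received a control diet, a diet with fish oil or a diet with microalgae from gestation day 75, and on gestation day 112 sows of each diet were given lipopolysaccharide (LPS, a component of bacterial outer membranes that provokes inflammation) or saline. A single male piglet per sow was used, weaned at 21 days. Every piglet, the offspring of control sows given saline included, received LPS itself at 28 days of age and was killed 2 h later, so no adrenal of a piglet without LPS was compared here. The control diet gave 3 piglets from saline sows (numbered 8, 14 and 21 in the labels) and 3 from LPS sows (6, 16 and 17). Fish oil gave 4 (9, 11, 13 and 18) and 4 (10, 19, 20 and 24), and microalgae gave 3 (12, 15 and 22) and 2 (7 and 23). Below, saline and LPS name the challenge of the sow, and values are listed in this order of piglets. Whole glands were used, so cortex and medulla are mixed, and fewer cells of a type and less RNA per cell cannot be told apart. The replicates are animals of different sows, and p-values measure the spread between these animals.

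As background, complex I takes electrons from NADH, complex II from succinate, and both pass them through ubiquinone to complex III, cytochrome c and complex IV, which reduces oxygen. Complexes I, III and IV pump protons across the inner membrane, and ATP synthase (complex V) makes ATP from the proton gradient. Each complex except complex II joins subunits from the nuclear and the mitochondrial genome. In the adrenal cortex, mitochondria also hold the first and the last steps of glucocorticoid synthesis, which draw NADPH-derived electrons through their own carriers rather than through the respiratory chain.

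Values were deposited as log2 signals. A probe set's level depends on its probes, so levels were compared between piglets and never between genes. The interquartile range of all probe sets of an array, called array spread here, ran from 2.27 in piglet 24 and 2.39 in piglet 6 to 2.65 in piglets 20 and 22, and array medians from 4.38 to 4.52. Piglets 24, 6, 15, 23 and 7 had the 5 lowest spreads, and 4 of these 5 were from LPS sows. Markers of the adrenal cortex were present, with 6 of 14 listed genes on the array at mean signals of 3.26 to 12.4, as were those of the medulla, with 7 of 12 at 5.44 to 10.8. Of the 4 skeletal muscle markers on the array, the highest mean was 4.47.

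The 54 genes varied little between piglets. The SD over the 19 piglets had a median of 0.22 on the log2 scale. In complex I it was smallest for NDUFV2, an iron-sulfur subunit of the NADH-binding module (0.12), and largest for NDUFA6, an accessory subunit (0.39). In complex III it was 0.30 for UQCRB and 0.87 for UQCR10, both small subunits of the cytochrome bc1 complex. In complex IV it ran from 0.14 for COX7C to 0.44 for NDUFA4L2, a paralog of the complex IV subunit NDUFA4 that is known for induction by low oxygen. In complex V it ran from 0.14 for ATP5F1, the b subunit of the stator, to 0.36 for ATP5L, the g subunit of the membrane part.

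That variation was shared to differing degrees. After removal of group means, a gene's correlation with the mean of the other 53 genes over the 19 piglets was highest for ATP5A1, the alpha subunit of the catalytic head (0.81), NDUFB8 (0.81), NDUFA1 (0.80), ATP5D (0.78), NDUFS3 (0.77) and NDUFAB1, the mitochondrial acyl carrier protein (0.77). It was lowest for COX8H (-0.20), NDUFA4L2 (-0.01), ATP5L (-0.01), NDUFC1 (0.08) and ATP5S (0.10). These correlations are descriptions, since the genes share the same arrays, and other probe sets were not examined in this way.

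The mean of the 54 genes in a piglet, each relative to its own mean over 19 piglets, was highest in piglet 10 (0.29), followed by 9 (0.17), 11 (0.15) and 13 (0.09), all 4 from fish oil sows. Piglet 10 stood above a gene's mean for 52 of 54 genes and had the highest value of all piglets for 22. The other fish oil offspring did not share this: piglets 18, 19, 20 and 24 had means of -0.10, 0.02, -0.11 and -0.05. The higher piglets are thus those with the lower pig numbers among the fish oil offspring. The other piglets numbered 6 to 13, which are 6, 7, 8 and 12, had means of -0.06, -0.17, -0.002 and 0.06. With pig number as a covariate, chosen after seeing the data, the median of fish oil against control was 0.12 with 49 genes higher. Both sides of this split are fish oil offspring, and whether it follows pig number was not tested. Whether the difference of fish oil from control follows pig number or diet was not tested either. The lowest means were in piglet 7 of microalgae and LPS (-0.17) and piglet 17 of control and LPS (-0.15). The SD between piglets of a group, pooled over groups, was 0.12 for this mean. The fish oil offspring therefore spanned nearly the whole range of the study, and in the heat map of the 54 genes piglets 9, 10, 11 and 13 have 45, 52, 48 and 37 genes above the mean, piglet 19 has 30, and piglets 18, 20 and 24 have 16, 18 and 24.

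**Figure D1:**
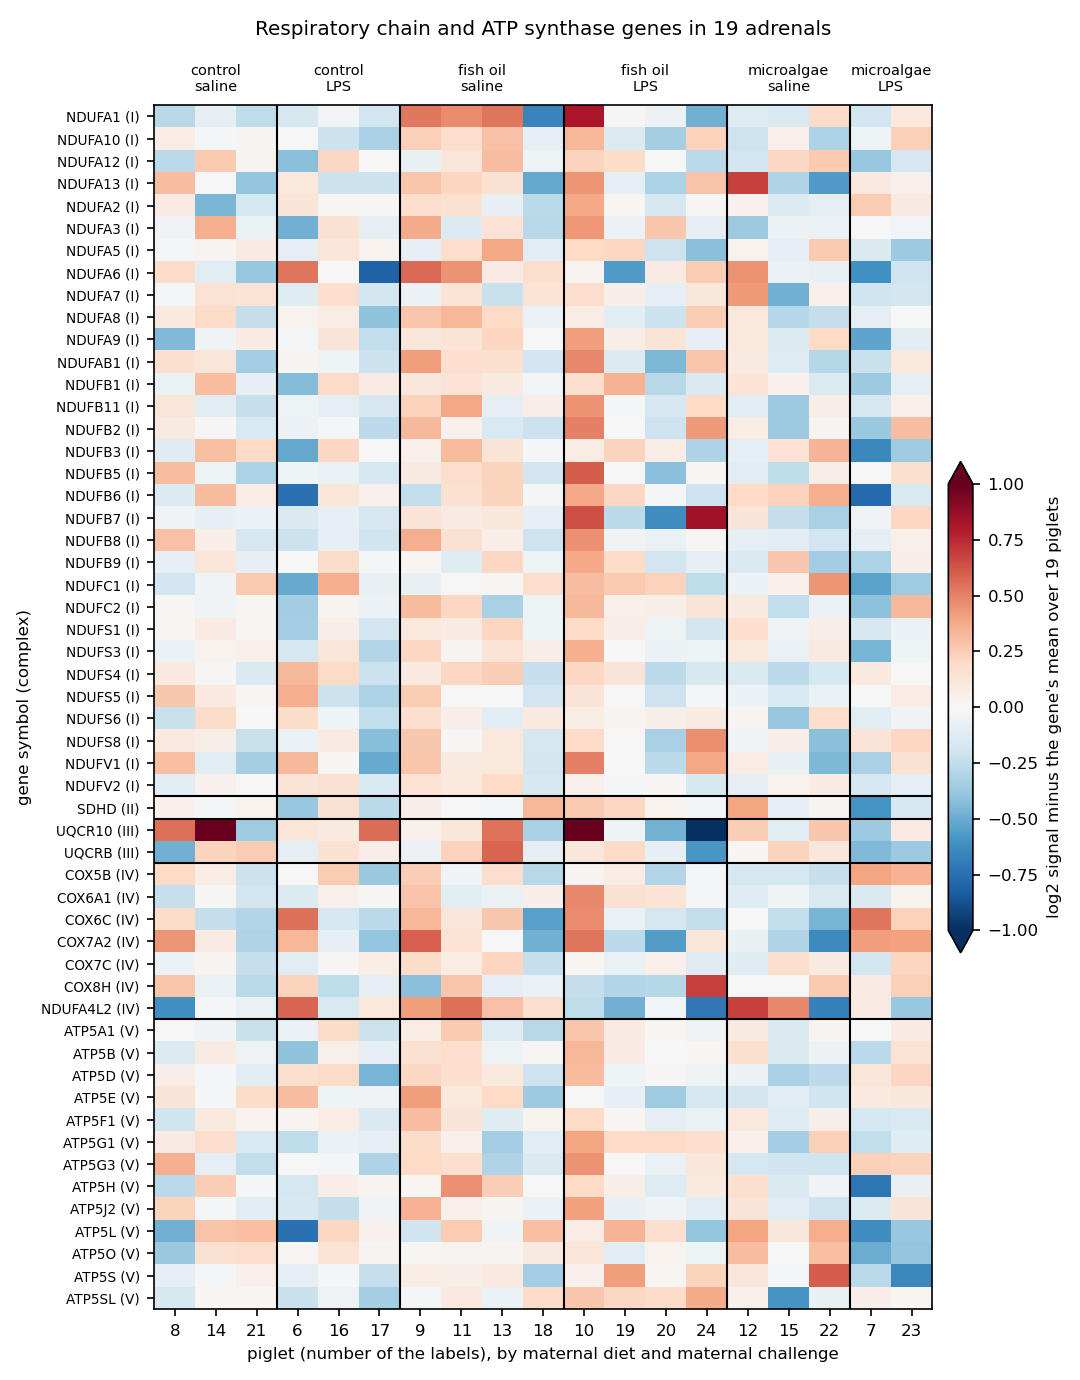
Log2 signal of each of the 54 genes (rows, by complex) in each of the 19 piglets (columns, by maternal diet and challenge) minus the gene's mean over the piglets; the colour scale ends at -1 and 1. Piglet 10 is above the mean for 52 of 54 genes, and piglets 9, 11 and 13 for most, while piglets 7 and 17 are mostly below.

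No gene of the 54 passed an adjusted p of 0.05 in any of the 16 comparisons made with limma (4 main effects, 3 interactions and 9 effects within 1 diet or 1 challenge; Benjamini-Hochberg over all 20668 probe sets tested). Among all probe sets, 0.00968% passed for maternal LPS and 0% in each of the other 15 comparisons. In the comparison of fish oil with control offspring, averaged over the challenges, the genes were nevertheless mostly higher: 45 of 54 had a positive difference, with a median of 0.11 log2, beside 50.4% of all probe sets tested, whose median was 0.00. Among the 3386 probe sets between the lower and upper quartile of the 54 genes' signals, 58.0% were higher, with a median of 0.03. Of the 54 genes 1 was higher at an unadjusted p under 0.05, beside 1.39% of all probe sets, and none was lower, beside 1.29%. The count was 42 of 54 after saline, beside 51.2%, and 43 of 54 after LPS, beside 49.3%. After saline 1 gene was higher at an unadjusted p under 0.05 (NDUFA4L2, 0.59 ± 0.28) and none lower, beside 1.13% and 1% of all probe sets, and after LPS 2 were higher (ATP5SL and ATP5G1) and none lower, beside 1.61% and 1.73%. The 54 genes vary together, so their count does not stand for 54 separate observations, and without piglet 10 their median was 0.06.

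The complexes were then taken separately. In complex I, 28 of 31 genes were higher in fish oil than in control offspring (median 0.12), in complex V 11 of 13 (median 0.13) and in complex IV 4 of 7 (median 0.02). Whether the complexes differed was not tested. The complex IV count rested on values near 0 and ran from 2 of 7 to 7 of 7 over the alternatives.

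**Figure D2:**
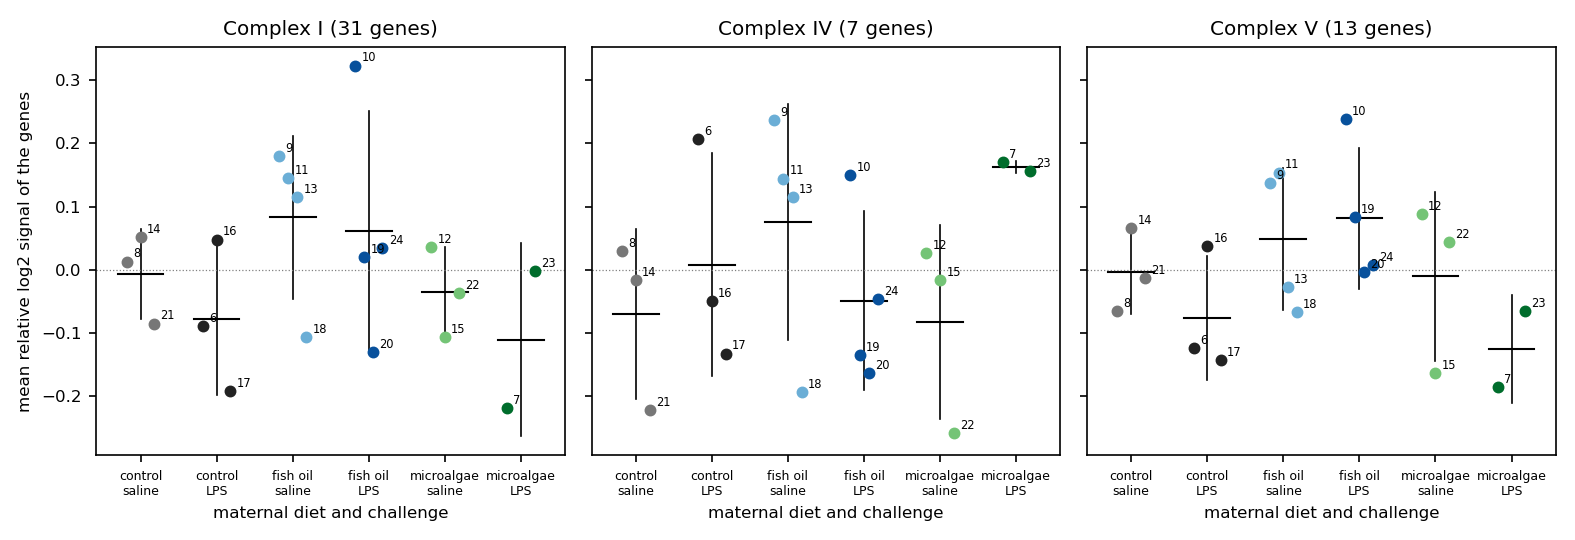
Mean relative log2 signal of the genes of complexes I, IV and V (vertical axis) in each piglet (points with the piglet's number), by maternal diet and challenge; horizontal bars are group means and vertical lines 1 SD. In complex I the fish oil offspring run from -0.13 to 0.32 and overlap every other group, and in complex IV piglets 7 and 23 lie together at 0.17 and 0.16.

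Among the redox core of complex I, NDUFV1, which binds NADH and flavin, differed by 0.17 ± 0.16 (standard error) between fish oil and control. NDUFV2 differed by 0.01 ± 0.09, NDUFS1, the largest iron-sulfur subunit, by 0.11 ± 0.09, and NDUFS8, an iron-sulfur subunit on the path to ubiquinone, by 0.15 ± 0.13. None of the 4 had an unadjusted p under 0.05. NDUFV1 signals were 6.65, 6.24 and 6.02 in control saline, 6.67, 6.36 and 5.85 in control LPS, 6.63, 6.44, 6.46 and 6.17 in fish oil saline and 6.86, 6.36, 6.09 and 6.74 in fish oil LPS offspring. The groups overlapped throughout, and the next values below piglet 10 included control piglets 6 and 8.

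Of the accessory subunits, NDUFA1, a small membrane protein needed for complex I assembly, had the largest positive difference of the 54, 0.31 ± 0.20 (95% interval -0.10 to 0.73; limma unadjusted p = 0.130). It is described here, as are NDUFB11, NDUFA9, UQCR10, COX6A1 and ATP5E in this comparison, because of these values. Its signals were 5.08, 5.02, 5.08 and 3.89 in fish oil saline and 5.36, 4.56, 4.49 and 4.07 in fish oil LPS offspring, against 4.27, 4.46 and 4.29 in control saline and 4.38, 4.52 and 4.36 in control LPS. Microalgae offspring had 4.42, 4.39 and 4.73 after saline and 4.36 and 4.65 after LPS. Piglets 9, 10, 11 and 13 thus lay between 5.02 and 5.36 while the other 15 piglets lay between 3.89 and 4.73. The fish oil group also held the lowest values of the study, in piglets 18 and 24. Piglets 9, 10, 11 and 13 are again the fish oil offspring with the lower pig numbers.

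NDUFA1 moved with single animals: without piglet 10 the difference was 0.19, and without piglet 18 0.46. NDUFB11 (0.22 ± 0.12) and NDUFA9 (0.21 ± 0.12), both accessory subunits, had smaller standard errors. NDUFA6 was measured by 2 probe sets that did not give the same direction: 0.23 for the brighter and -0.19 for the dimmer in fish oil against control, and 0.28 and -0.22 in fish oil against microalgae. Its values are uncertain for that reason. NDUFS5, an accessory subunit, had the lowest difference of complex I, -0.04 ± 0.11.

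In complex II, SDHD, a membrane anchor of succinate dehydrogenase, differed by 0.18 ± 0.12 between fish oil and control; a second probe set of the gene, at a mean of 4.11, differed by 0.54. In complex III, UQCRB differed by 0.01 ± 0.15, and UQCR10 had the lowest difference of all 54 genes, -0.61 ± 0.44. UQCR10 signals were 8.41, 8.91 and 7.50 in control saline, 7.98, 7.96 and 8.42 in control LPS, 7.91, 7.97, 8.40 and 7.53 in fish oil saline and 8.95, 7.81, 7.38 and 4.74 in fish oil LPS offspring. Piglet 24 stood at 4.74 while the other 18 piglets lay between 7.38 and 8.95, and without piglet 24 the difference was -0.19.

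In complex IV, COX6A1, the isoform found outside heart and skeletal muscle, differed by 0.19 ± 0.10 (unadjusted p = 0.0707). COX6C differed by 0.06 ± 0.17, COX7C by 0.06 ± 0.10, COX7A2 by 0.00 ± 0.19 and COX5B, a subunit on the matrix side, by -0.01 ± 0.12. COX8H, named for the heart isoform, differed by -0.02 ± 0.16. Apart from COX6A1, these differences were smaller than their standard errors.

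In complex V, the 2 subunits of the catalytic head, ATP5A1 and ATP5B (alpha and beta), differed by 0.09 ± 0.11 and 0.18 ± 0.11. ATP5G1 and ATP5G3, separate genes for the same mature c subunit of the rotor ring, differed by 0.14 ± 0.11 and 0.10 ± 0.12. ATP5E, the epsilon subunit of the central stalk, had the lowest difference of the complex, -0.12 ± 0.12. ATP5B signals were 9.17, 9.39 and 9.26 in control saline, 8.90, 9.36 and 9.21 in control LPS, 9.46, 9.49, 9.26 and 9.32 in fish oil saline and 9.64, 9.39, 9.31 and 9.33 in fish oil LPS offspring. The fish oil piglets ranged from 9.26 to 9.64 and the control piglets from 8.90 to 9.39, so the ranges overlapped.

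ATP5SL was the gene of the 54 with an unadjusted p under 0.05. Its symbol places it here, but its product is known as a factor for assembly of the distal membrane arm of complex I and not as an ATP synthase subunit. Signals were 5.06, 5.24 and 5.24 in control saline, 5.0, 5.17 and 4.88 in control LPS, 5.21, 5.32, 5.15 and 5.41 in fish oil saline and 5.49, 5.43, 5.41 and 5.59 in fish oil LPS offspring, with 5.27, 4.63 and 5.15 in microalgae saline and 5.29 and 5.24 in microalgae LPS offspring. After LPS, the 4 fish oil piglets lay above all control and microalgae piglets, and after saline the groups overlapped. The difference was 0.28 ± 0.10 (95% interval 0.06 to 0.49; limma unadjusted p = 0.0146, adjusted p = 1.0), and after LPS alone 0.46 ± 0.14 (adjusted p = 1.0).

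**Figure D3:**
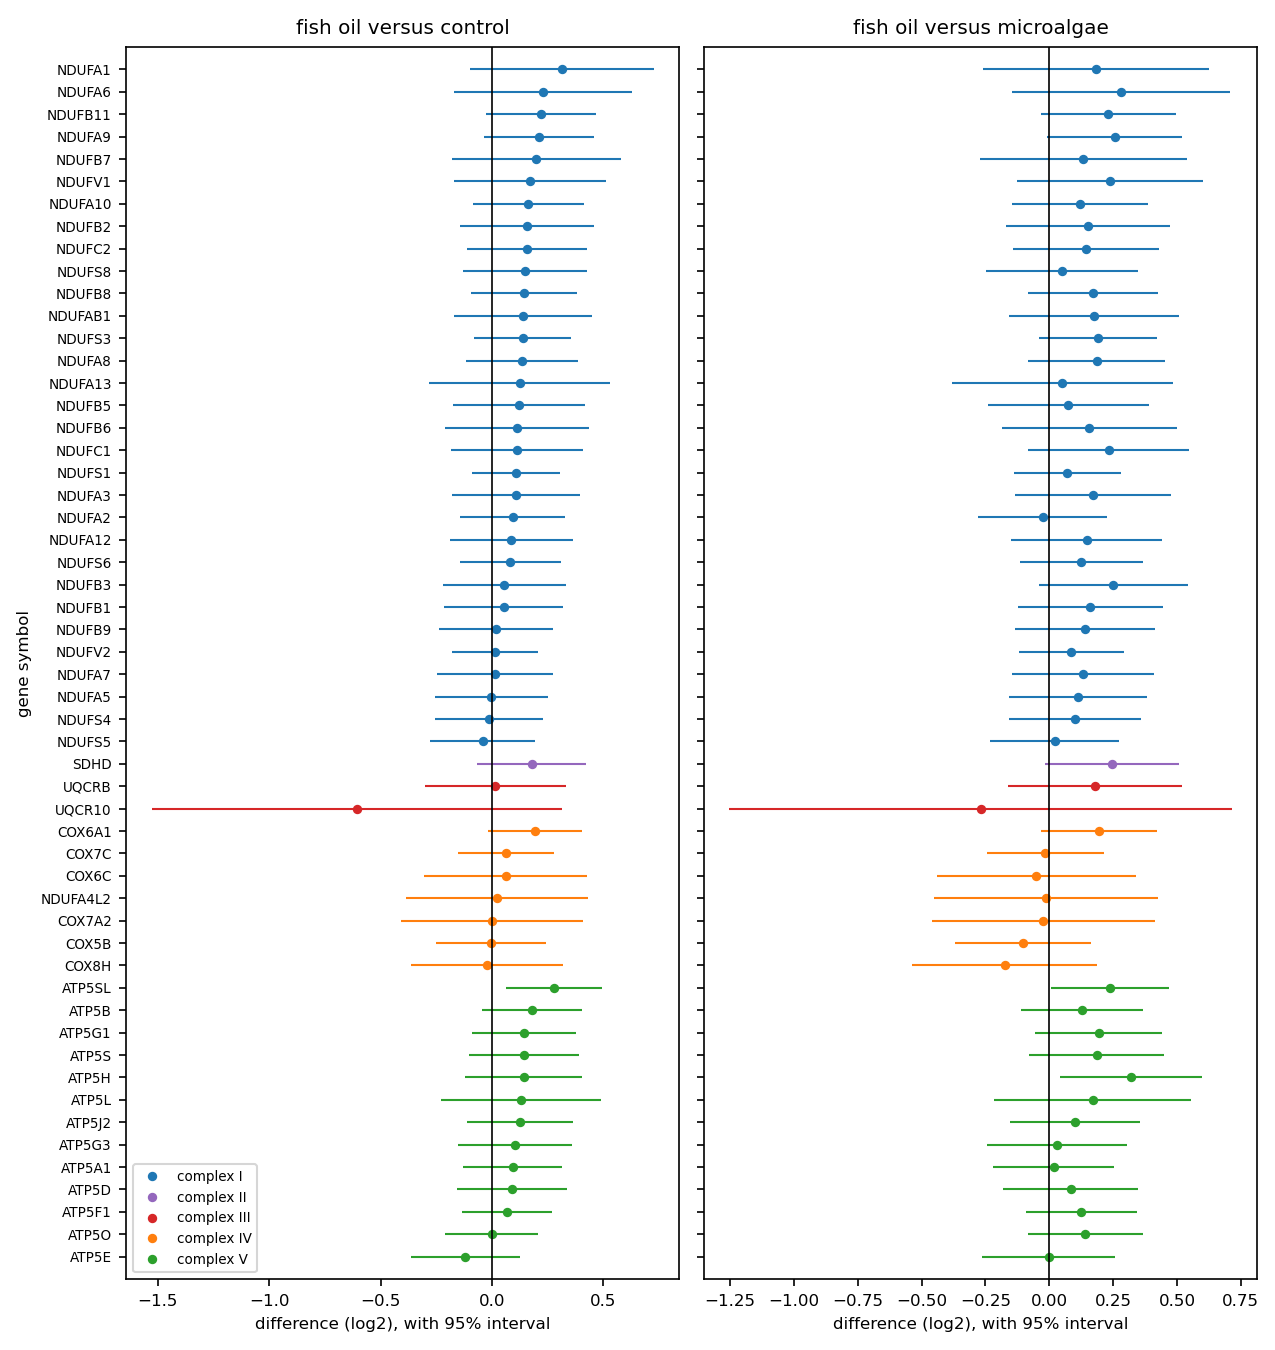
Difference in log2 signal (points) with its 95% interval (lines) for each of the 54 genes, grouped by complex, for fish oil against control (left) and fish oil against microalgae (right), averaged over saline and LPS. Points to the right of 0 are higher in fish oil offspring, 45 of 54 in each panel, and the panels share the fish oil piglets.

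Markers of cell types were also described in this contrast. Of the fibroblast and capsule markers, 9 of 10 were lower in fish oil than in control offspring, with a median of -0.62; none of the marker lists named here had a gene past an adjusted p of 0.05. Their mean relative signal ran from -0.38 to 1.12 in control saline, -1.14 to 0.77 in control LPS, -1.09 to 0.00 in fish oil saline and -1.17 to 0.45 in fish oil LPS offspring, and from 0.03 to 0.93 and -0.33 to 0.15 in microalgae saline and LPS offspring, and only fish oil saline and microalgae saline, of the 6 groups, did not overlap. Cortex markers were higher for 5 of 6 (median 0.14), medulla markers for 2 of 7 (-0.16) and endothelial for 6 of 7 (0.13). Macrophage markers were higher for 7 of 7 (0.25) and lymphocyte for 7 of 8 (0.27), beside 50.4% of all probe sets. The macrophage mean relative signal was -0.27 in control saline, 0.10 in control LPS, 0.17 in fish oil saline and 0.08 in fish oil LPS offspring. After LPS it was thus no higher in fish oil than in control offspring. Mean signals were 3.23 to 6.06 for macrophage and 3.36 to 4.68 for lymphocyte markers, with the filter at 3.23. With the fibroblast score as a covariate, an alternative chosen after seeing the data, the median of the 54 genes was 0.09 and 43 of 54 were higher. With the medulla score as a covariate it was 0.11, and without piglets 6 and 24, the arrays of lowest spread, 0.10. The part of the endothelial, macrophage and lymphocyte markers in the result was not tested.

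In microalgae against control offspring, 22 of 54 genes were higher, with a median of -0.04, beside 51% of all probe sets. None of the 54 had an unadjusted p under 0.05 in either direction, beside 0.856% of all probe sets higher and 0.789% lower. Complex I was higher for 10 of 31 genes (median -0.04), complex IV for 6 of 7 (0.08) and complex V for 6 of 13 (-0.04). The catalytic subunits ATP5A1 and ATP5B differed by 0.07 ± 0.12 and 0.05 ± 0.12, and NDUFV1 by -0.07 ± 0.18. With 5 microalgae piglets the median turned on single animals: it was 0.03 without piglet 7 and -0.07 without piglet 23.

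Set directly against microalgae, fish oil offspring were higher for 45 of 54 genes, with a median of 0.14, beside 48.7% of all probe sets. This comparison shares the fish oil piglets with the one against control and is no separate support for it. Complex I was higher for 30 of 31 genes (median 0.15; NDUFA2 was the exception at -0.03), complex V for 12 of 13 (median 0.13) and complex IV for 1 of 7, COX6A1 at 0.19 ± 0.11 (median of complex IV -0.02). The complex IV values lay near 0 and turned with the setting: 4 of 7 were higher with arrays centred on their medians, with the medulla score as a covariate or without piglet 12, and 5 of 7 without piglet 18. Of the 54 genes 2, ATP5H and ATP5SL, were higher at an unadjusted p under 0.05, beside 1.55% of all probe sets, and none lower, beside 1.3%. After LPS alone, 38 of 54 were higher, beside 47.6%. ATP5H, the d subunit of the stator, had signals of 8.40, 8.84, 8.63 and 8.38 in fish oil saline, 8.58, 8.44, 8.25 and 8.47 in fish oil LPS, 8.55, 8.23 and 8.35 in microalgae saline and 7.66 and 8.30 in microalgae LPS offspring. Piglet 7 was the lowest of these, and the other 4 microalgae piglets lay within the fish oil range or just below it. The difference of ATP5H was 0.32 ± 0.13 (unadjusted p = 0.0265; adjusted p = 1.0) and 0.16 without piglet 7. ATP5SL differed by 0.24 ± 0.11 (limma unadjusted p = 0.0450) and by 0.14 without piglet 15. The median of the 54 genes was 0.09 without piglet 7. After LPS alone 9 genes were higher and 1 lower at an unadjusted p under 0.05, beside 3.27% and 3.74% of all probe sets. That comparison set 4 fish oil piglets against 2 microalgae piglets, 7 and 23, both among the 5 arrays of lowest spread. How these counts depend on single piglets or on array spread was not examined.

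Between offspring of LPS and saline sows, averaged over the 3 diets, 22 of 54 genes were higher and 32 lower, with a median of -0.03, beside 51.8% of all probe sets higher. The split moved with the scaling of the arrays: 14 of 54 were higher when each array was centred on its median, and 28 of 54 after quantile normalization, where the median was 0.01. Of the 3386 probe sets of like signal, 31.4% were higher, with a median of -0.07. Complexes I (12 of 31 higher) and V (5 of 13) lay on the lower side, both complex III genes were lower, and complex IV was higher for 5 of 7, led by COX6C (0.24 ± 0.15) and COX7A2 (0.17 ± 0.17).

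The genes with the clearest differences after maternal LPS were NDUFB3 and NDUFB6 of complex I, SDHD of complex II, and ATP5L and ATP5O of ATP synthase, all lower. These 5 of the 54 were lower at an unadjusted p under 0.05, beside 3.59% of all probe sets, and none was higher, beside 3.37%; the smallest adjusted p was 0.605. NDUFB3, a membrane accessory subunit, had signals of 6.52, 7.24 and 7.03 in control, 7.10, 7.25, 7.10 and 6.72 in fish oil and 6.39 and 6.67 in microalgae offspring of LPS sows, against 6.91, 7.33 and 7.23 in control, 7.08, 7.35, 7.16 and 7.01 in fish oil and 6.94, 7.17 and 7.37 in microalgae offspring of saline sows. Piglets 6, 7, 23 and 24 lay below every saline piglet, and the other 5 LPS piglets lay inside the saline range. The difference was -0.32 ± 0.11 (limma unadjusted p = 0.0116). The count of 5 was 1 without piglet 14, 2 without piglet 6, 7, 12 or 21, 3 without piglet 17, 22 or 24, and 8 without piglet 16; the median over the 54 genes was -0.08 without piglet 23, and without piglet 7 it was 0.00 with 29 genes higher.

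ATP5L had signals after LPS of 6.39, 7.35 and 7.18 in control, 7.22, 7.48, 7.31 and 6.75 in fish oil and 6.52 and 6.76 in microalgae offspring. After saline they were 6.66, 7.43 and 7.44 in control, 6.94, 7.40, 7.11 and 7.44 in fish oil and 7.54, 7.26 and 7.51 in microalgae offspring. Piglets 6, 7, 23 and 24 were again the lowest, together with piglet 8 of a saline sow. Its difference was -0.34 ± 0.15, that of NDUFB6, a membrane accessory subunit, -0.31 ± 0.13, that of SDHD -0.22 ± 0.10 and that of ATP5O, the subunit that joins the stator to the catalytic head, -0.20 ± 0.09. The second probe set of SDHD, at a mean of 4.11, differed by -0.09 ± 0.23. Piglets 6, 7, 23 and 24 are 4 of the 5 arrays of lowest spread. With array spread as a covariate the differences were -0.23 for NDUFB3, -0.23 for NDUFB6, -0.20 for ATP5L, -0.16 for SDHD (brighter probe set) and -0.17 for ATP5O. In that fit 2 of the 54 genes were lower at an unadjusted p under 0.05. Without piglets 6 and 24 they were -0.22, -0.19, -0.20, -0.17 and -0.19, again with 2 genes. UQCR10 (-0.39 ± 0.38) rested on piglet 24, without which it was -0.11. Cortex markers were lower after LPS for 6 of 6 (median -0.10) and medulla markers for 6 of 7 (-0.26), while 51.8% of all probe sets were higher. The medulla mean relative signal ran from -0.96 in piglet 24 to 0.58 in piglet 7 after LPS, and from -0.23 to 0.51 after saline, so the ranges overlapped. The part of the cortex markers was not tested.

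Within diets, LPS offspring had 15 of 54 genes higher than saline offspring under the control diet (median -0.08; 50.3% of all probe sets), 23 under fish oil (-0.03; 51.1%) and 27 under microalgae (0.01; 53.3%). Under the control diet no gene had an unadjusted p under 0.05, beside 0.982% of all probe sets higher and 0.755% lower, and under fish oil none was higher and 1, NDUFA4L2, lower, beside 1.39% and 2.88%. The spread of differences was widest under microalgae, where 3 genes were higher and 7 lower at an unadjusted p under 0.05, beside 5.86% and 5.81% of all probe sets. That comparison set 2 piglets against 3, and no gene reached an adjusted p of 0.05; the smallest was 0.280. The lower genes were ATP5L (-0.79 ± 0.29), NDUFB6 (-0.73 ± 0.26), ATP5S (-0.69 ± 0.20), ATP5O (-0.65 ± 0.17), NDUFB3 (-0.63 ± 0.22), NDUFC1 (-0.59 ± 0.24) and SDHD (-0.49 ± 0.20), and the higher genes COX7A2 (0.75 ± 0.33), COX6C (0.62 ± 0.29) and COX5B (0.56 ± 0.20). With array spread as a covariate, which was chosen after seeing the data, ATP5O was -0.60, ATP5S -0.67, NDUFC1 -0.43 and COX5B 0.53. Without piglet 7, SDHD was -0.28 and NDUFB6 -0.42, with the 1 remaining piglet of the group assumed to vary like the others.

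Interaction terms, which test whether the maternal LPS difference itself depended on diet, had no gene of the 54 past an adjusted p of 0.05. They were above 0 for 34 of 54 genes between fish oil and control, 28 between microalgae and control and 28 between fish oil and microalgae, beside 49.7%, 52% and 47.3% of all probe sets. These counts moved with single piglets: fish oil against control ran from 24 without piglet 10 to 38 without piglet 20 or 21, microalgae against control from 21 without piglet 23 to 35 without piglet 7, and fish oil against microalgae from 18 without piglet 7 to 33 without piglet 23. ATP5O signals were 6.04 and 6.14 in microalgae LPS against 6.84, 6.53 and 6.84 in microalgae saline offspring. In control offspring they were 6.16, 6.69 and 6.71 after saline and 6.54, 6.67 and 6.57 after LPS, and in fish oil offspring 6.54, 6.56, 6.56 and 6.62 after saline and 6.66, 6.42, 6.57 and 6.48 after LPS. The microalgae LPS piglets lay below every other piglet. Between microalgae and control, 1 of the 54 genes was higher and 2 lower at an unadjusted p under 0.05, beside 2.87% and 2.54% of all probe sets. The ATP5O interaction was -0.72 ± 0.23 between microalgae and control (unadjusted p = 0.00532, adjusted p = 0.858) and 0.61 ± 0.21 between fish oil and microalgae.

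COX5B went the other way: microalgae offspring had 6.01, 6.01 and 5.95 after saline and 6.58 and 6.54 after LPS, the 2 highest of the 19, while control offspring had 6.39, 6.26 and 5.97 after saline and 6.19, 6.44 and 5.81 after LPS, and fish oil offspring 6.43, 6.15, 6.36 and 5.91 after saline and 6.21, 6.26, 5.89 and 6.16 after LPS. Its interaction was 0.62 ± 0.27 between microalgae and control and -0.65 ± 0.25 between fish oil and microalgae. ATP5S, which encodes the coupling factor B protein, had the smallest interaction p of the 54, 0.90 ± 0.25 between fish oil and microalgae (unadjusted p = 0.00217, adjusted p = 0.584). Its signals were 4.65, 4.52 and 5.13 in microalgae saline, 4.26 and 3.89 in microalgae LPS, 4.61, 4.59, 4.63 and 4.19 in fish oil saline and 4.57, 4.95, 4.55 and 4.75 in fish oil LPS offspring. In all, 4 of 54 genes were higher and 1 lower at an unadjusted p under 0.05 in the interaction of fish oil with microalgae, against 3.18% and 4.05% of all probe sets. The higher count was 2 without piglet 7, 10 or 22, 7 without piglet 6 or 24 or with arrays centred on their medians, and 8 without piglet 15. The lower count was 0 without piglet 7, 2 without piglet 6 or 12, and 4 without piglet 10 or 18.

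Between fish oil and control, NDUFA4L2 was the gene of the 54 with an interaction at an unadjusted p under 0.05, beside 1.6% of all probe sets lower and 1.04% higher. Signals were 4.64, 5.24 and 5.18 in control saline and 5.83, 5.10 and 5.35 in control LPS, 5.67, 5.80, 5.54 and 5.43 in fish oil saline and 4.99, 4.77, 5.22 and 4.53 in fish oil LPS offspring. All 4 fish oil LPS piglets lay below all 4 fish oil saline piglets, and the control groups overlapped. Microalgae offspring had 5.93, 5.73 and 4.57 after saline and 5.33 and 4.87 after LPS. The interaction was -1.14 ± 0.39 (unadjusted p = 0.00930, adjusted p = 1.0), and the difference within fish oil was -0.73 ± 0.26 (adjusted p = 0.821). The next smallest p-values belonged to ATP5G1 (0.46 ± 0.22) and ATP5SL (0.37 ± 0.20).

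**Figure D4:**
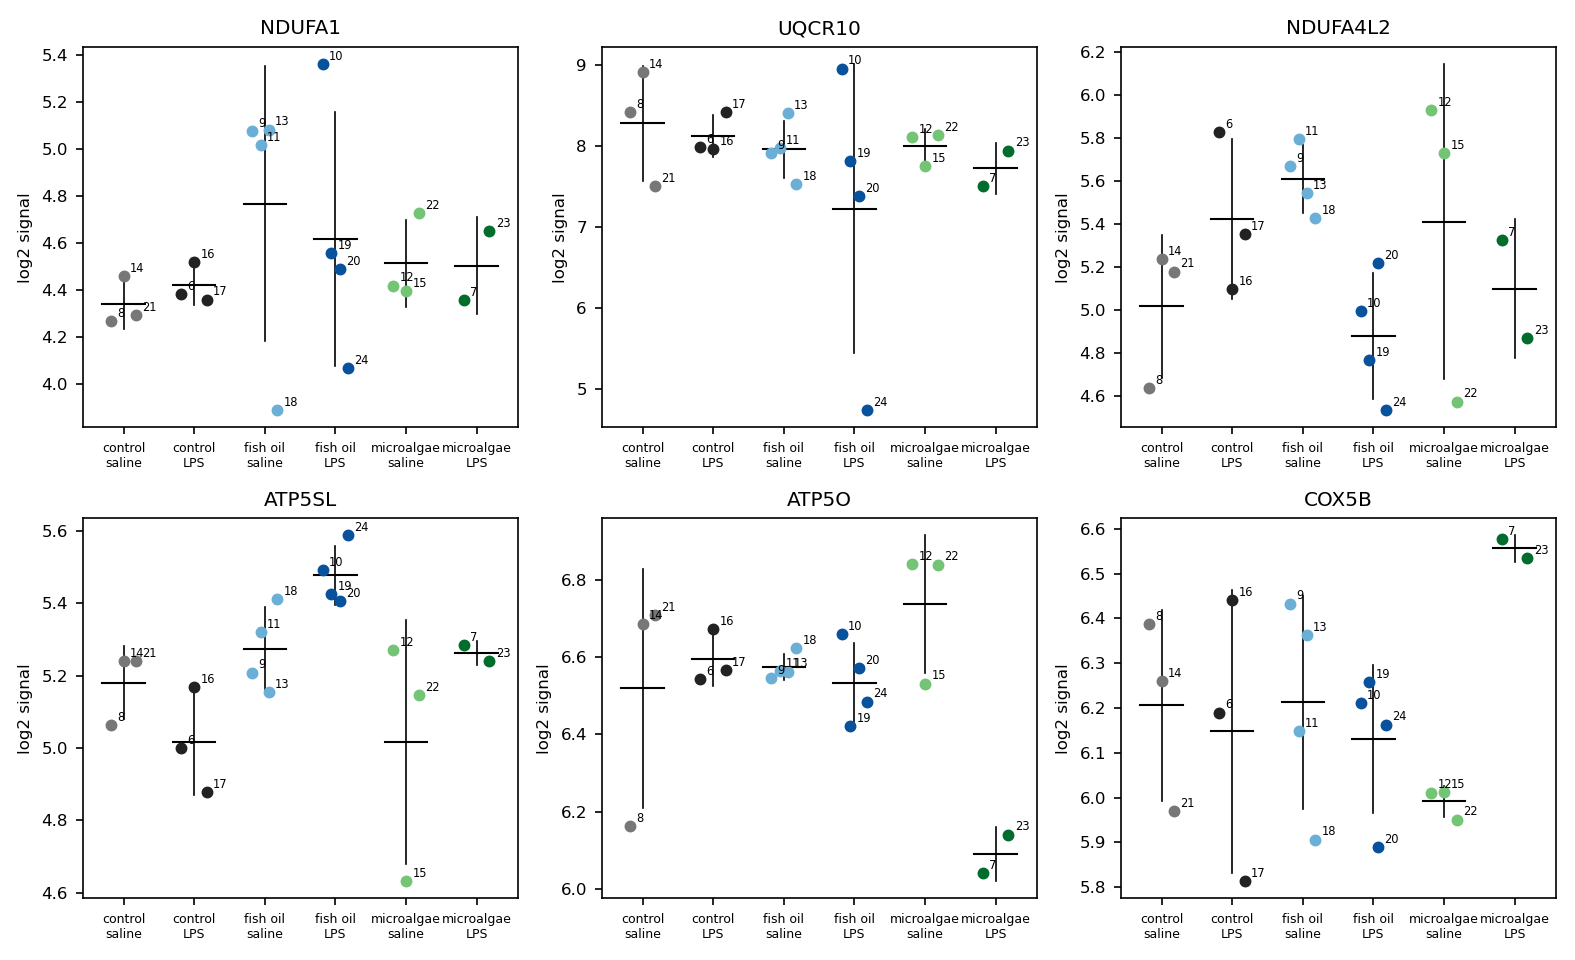
Log2 signal (vertical axes, each with its own range that does not start at 0) of 6 genes in each piglet (points with numbers), by maternal diet and challenge; horizontal bars are group means and vertical lines 1 SD. NDUFA1 exceeds 5 in piglets 9, 10, 11 and 13, UQCR10 is at 4.74 in piglet 24, and piglets 7 and 23 hold the lowest ATP5O and the highest COX5B signals.

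Some genes followed properties of the arrays or of the animals' numbers across all groups. Of 108 correlations (54 genes with array spread and with pig number, 19 piglets, 100000 permutations, 2-sided), 3 passed a Benjamini-Hochberg adjusted p of 0.05. ATP5L rose with array spread (Pearson r = 0.71, permutation p = 0.00064, adjusted p = 0.0367; Spearman rho = 0.76, permutation p = 0.00029) and gave r = 0.65 without piglets 24 and 6. NDUFC1, a membrane accessory subunit of complex I, did so with r = 0.68 (permutation p = 0.00124, adjusted p = 0.0446; rho = 0.71, permutation p = 0.00093) and r = 0.65 without the same piglets. Such relations were common on these arrays: 34.9% of all probe sets had a correlation beyond 0.5 with array spread in either direction, against 12 of the 54 genes.

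COX6C fell with pig number (r = -0.72, permutation p = 0.00068, adjusted p = 0.0367; rho = -0.71, permutation p = 0.00103) and gave r = -0.67 without piglets 6 and 24. Its signals were 8.01 to 8.56 in the 8 piglets numbered 6 to 13 and 7.46 to 7.94 in the 9 numbered 14 to 22. Piglets 23 and 24 had 7.76 to 8.24. The first 2 sets did not overlap, and each held piglets of all 3 diets. The labels give no such sets, so the division is a description and its lack of overlap is no test. The first set held fish oil piglets 9, 10, 11 and 13, control piglets 6 and 8, and microalgae piglets 7 and 12. COX7A2, with 7.92 to 8.60 and 7.37 to 8.08 in the same sets and 8.12 to 8.40 in piglets 23 and 24, had r = -0.62 (permutation p = 0.00543, adjusted p = 0.0733; rho = -0.63, permutation p = 0.00444) and r = -0.69 without piglets 6 and 24. Against pig number 7 of the 54 genes were beyond 0.5, all of them falling, beside 7.23% of all probe sets. Piglets 23 and 24, the highest numbers, lay above all of piglets 14 to 22 for COX7A2. The labels do not say what the order of the numbers stands for.

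**Figure D5:**
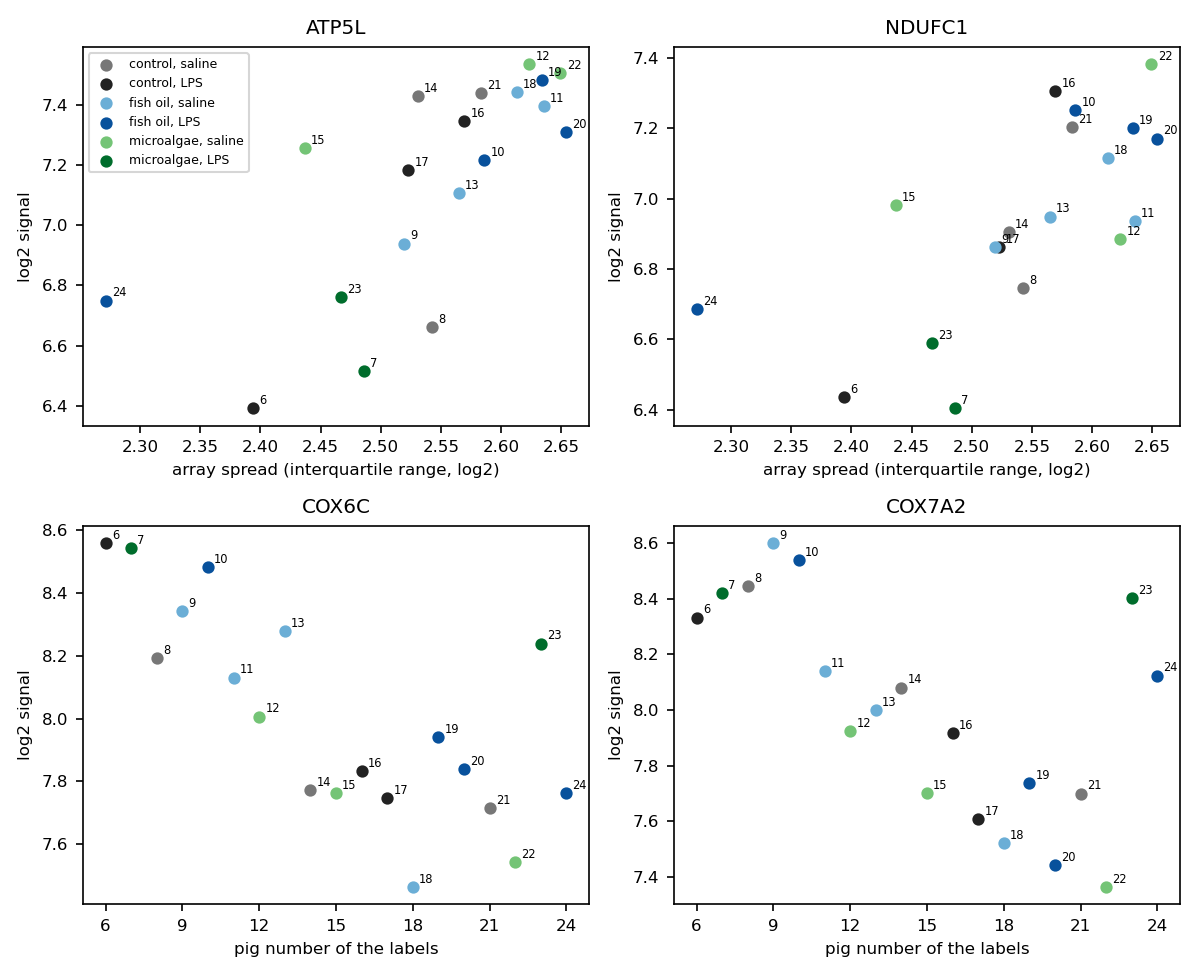
Log2 signal of ATP5L and NDUFC1 against array spread (upper panels) and of COX6C and COX7A2 against pig number (lower panels), 1 point per piglet, coloured by maternal diet and challenge; axes do not start at 0. Piglets 6, 7, 23 and 24 lie low for ATP5L and NDUFC1, and piglets 6 to 13 lie above piglets 14 to 22 for COX6C.

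Other genes of the mitochondrion were listed by name and described in the same comparisons, and none passed an adjusted p of 0.05. In fish oil against control offspring, genes of the mitochondrial ribosome, which makes the mitochondrially encoded subunits, were higher for 43 of 52 (median 0.06), those of the citric acid cycle, which supplies NADH and succinate, for 12 of 13 (0.09), and electron carriers and other inner membrane proteins for 8 of 10 (0.05). Assembly factors were higher for 11 of 20 (0.02) and regulators of mitochondrial genes for 4 of 9 (-0.05). Subunits encoded in the mitochondrial genome lay close to 0, 6 of 8 higher with a median of 0.02: ND1 differed by 0.03 ± 0.11, CYTB by -0.02 ± 0.11 and COX1 by 0.05 ± 0.09, named after their values were seen. Their mean signals ran from 5.31 to 12.8 with a median of 12.3, and the highest value of the deposited table was 13.5. Whether differences are measured alike at such levels was not tested. No gene of these 6 lists had an unadjusted p under 0.05 in this comparison, in which 50.4% of all probe sets were higher. The mean relative signal of the ribosome genes ran from -0.04 to 0.23 in fish oil and from -0.09 to 0.08 in control offspring. That of the citric acid cycle ran from -0.15 to 0.17 and from -0.20 to 0.15. Piglet 10 was the highest of all piglets in both. How the counts depend on single piglets was not tested.

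Against microalgae, fish oil offspring were higher for 49 of 52 mitochondrial ribosome genes (median 0.12), with MRPL14 at 0.32 ± 0.11 and MRPS7 at 0.30 ± 0.11 (unadjusted p = 0.0109 and 0.0174), for 11 of 13 citric acid cycle genes, for 15 of 20 assembly factors and for 6 of 8 mitochondrial genome genes (median 0.00). Microalgae against control gave 14 of 52 ribosome genes higher (median -0.06) and ECSIT, a complex I assembly factor, at -0.31 ± 0.14. Over all probe sets, 48.7% were higher in the first of these comparisons and 51% in the second. After maternal LPS, 34 of 52 ribosome genes (median -0.03) and 11 of 13 citric acid cycle genes (median -0.12) were lower. Of the mitochondrial genome genes, 7 of 8 were higher (median 0.07). Their mean relative signal was -0.51 in piglet 8 of control saline and -0.21 to 0.22 in the other saline piglets, beside -0.12 to 0.24 after LPS. For the citric acid cycle it ran from -0.31 to 0.17 after LPS and from -0.12 to 0.16 after saline. Its lowest values were in piglets 7, 6 and 24, all among the arrays of lowest spread. How these counts depend on single piglets or array spread was not tested. Over all probe sets 51.8% were higher after maternal LPS, and 31.4% of the 3386 of signal like the 54 genes, with a median of -0.07. Those 3386 had mean signals of 6.24 to 7.77, while the ribosome genes had a median of 5.87, so they are no close reference for the ribosome. Whether the ribosome count stands apart from a background of its own signal was not tested. The genes of these lists with the smallest unadjusted p under maternal LPS were MRPS10 (-0.35 ± 0.12) and MRPL49 (-0.68 ± 0.27) of the ribosome, GPD2, the mitochondrial glycerol phosphate dehydrogenase (-0.34 ± 0.12), TMEM126B (-0.34 ± 0.14) and PET100 (-0.36 ± 0.15), assembly factors of complexes I and IV, SUCLG2 of the citric acid cycle (-0.26 ± 0.12) and the coactivator PPARGC1B (0.24 ± 0.10).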

How the data were processed

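RNA of whole adrenals was hybridised to Affymetrix whole-transcript arrays, 1 per piglet. The deposited table holds 27558 probe sets by 19 piglets, and the authors used Transcriptome Analysis Console 4.0, per the submitters' processing notes. The deposited values are taken as log2 signals from their range of 0.263 to 13.5; background correction, normalization, summary method and array build are not given in the sources used here. Genes were named from the platform annotation through probe sets with 1 symbol.

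The values were used without further normalization. Probe sets in the lowest 25% of mean signal (below 3.23) were left out, which left 20668. limma 3.58.1 in R 4.3.3 was fitted with 1 mean for each of 6 diet by challenge groups and an intensity trend (13 residual degrees of freedom), and p-values were adjusted by Benjamini-Hochberg over all probe sets tested. Main effects average over the other factor with equal weight for groups. Differences are log2, first group minus second, ± standard error. The fit was tested on simulated data. The number of arrays limits the precision.

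Named genes were those past an adjusted p of 0.05, otherwise up to 5 per direction at an unadjusted p under 0.05 in each main effect, the 3 smallest p-values of each interaction, members of largest and smallest SD per complex, catalytic subunits, isoform pairs and symbols with discordant probe sets; from other lists, the 2 smallest unadjusted p-values under 0.05 per main effect. The members, lists and rules were chosen with earlier results of these data known, and the lists of markers and other mitochondrial genes give no independent support. Alternatives covered scaling, filter, weights, covariates, model, probe set choice, membership and each piglet left out.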

Additional observations from a re-analysis of the deposited data

Results flagged for a closer look

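In groups of 4 piglets, a gene's highest or lowest value was set apart when its gap to the nearest other, as a share of the group's range, exceeded Dixon's 95% critical value for 4 samples. Only the fish oil groups have 4 piglets, so the other groups were not examined. Of 116 sets of 4 values (108 of single genes, and 8 of the mean relative signal of the 54 genes and of complexes I, IV and V), 10 met this, all of single genes, and chance gives about 1 in 20 sets. In the fish oil saline group, piglet 18 stood low for NDUFA1 at 3.89 (the others 5.02 to 5.08), NDUFA13 at 5.86 (6.53 to 6.65) and ATP5S at 4.19 (4.59 to 4.63). In the fish oil LPS group, piglet 10 stood high for NDUFB8 at 6.71 (6.19 to 6.28), NDUFS3 at 7.58 (7.17 to 7.23), ATP5D at 6.73 (6.36 to 6.42), ATP5G1 at 6.80 (6.58 to 6.60) and ATP5J2 at 8.65 (8.12 to 8.20). In the same group, piglet 24 stood low for NDUFC1 at 6.69 (7.17 to 7.25) and high for COX8H at 4.49 (3.51 to 3.57). All 10 values belong to piglets 10, 18 and 24.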

How the results depend on the processing

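No member passed an adjusted p of 0.05 in a main effect under any of the 12 alternatives chosen first, the 3 added after seeing the data or the 19 fits that left out 1 piglet. Fish oil against control gave a median of 0.09 to 0.13 over the 12, with 41 to 50 members higher. Leaving out 1 piglet gave 0.06 (without piglet 10) to 0.15 (without 16) and 40 to 49 members. Fish oil against microalgae gave 0.12 to 0.17 and 43 to 50 members, and 0.09 to 0.18 and 40 to 51 with 1 piglet left out. Microalgae against control gave -0.05 to -0.02 and 19 to 25, and -0.07 to 0.03 and 15 to 32. Maternal LPS gave -0.08 to 0.01 and, with 1 piglet left out, -0.08 to 0.00 and 15 to 29; members higher were 14 with arrays centred on their medians and 28 after quantile normalization. Over all of these, members higher at an unadjusted p under 0.05 were 0 to 4 for fish oil against control (1 as reported), 0 to 6 for fish oil against microalgae (2 as reported), and 1 to 8 lower for maternal LPS (5 as reported). For the interactions, leaving out 1 piglet gave medians of -0.03 to 0.12 (fish oil against control), -0.10 to 0.08 (microalgae against control) and -0.08 to 0.07 (fish oil against microalgae), and centring gave 0.05, -0.07 and 0.11; no member passed an adjusted p of 0.05. Calls at an unadjusted p under 0.05 between microalgae and control ran from 0 to 3 higher and 1 to 5 lower. The lowest 50% filter left 52 members. Without piglet 7 or 23, the remaining microalgae LPS piglet was assumed to vary like the other groups. No paired analysis was made, because the groups hold different piglets of different sows and the labels give no pairing.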
